A study of Drosophila virilis and Drosophila willistoni and Drosophila miranda with 119 samples.

Results

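The genes described here encode the proteins of the cytoplasmic ribosome of Drosophila. Members were chosen by gene symbol: a symbol had to begin with RpL or RpS followed by a number, or with RpLP for the acidic stalk. Symbols with -like were left out, as were RpL22, RpL24, RpS5a, RpS5b, RpS10a, RpS10b, RpS19a and RpS19b, 13 symbols of the family in all. The rule found 79 of the 17674 genes in the table, 31 of the small subunit and 48 of the large subunit. No expression value was used to choose them.

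The ribosome is built from ribosomal RNA and one copy of most of these proteins per particle. The small subunit reads the messenger RNA, and the large subunit joins amino acids and guides the new chain through its exit tunnel. In Drosophila the mother loads the egg with ribosomes and with messenger RNA for ribosomal proteins. The embryo's own genome is switched on between stage 2 and stage 5, and flies with a single working copy of many of these genes show the Minute phenotype of slow growth and thin bristles.

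RNA was sequenced from 119 embryos of 14 Drosophila species, 64 at stage 2 (early cleavage, before most zygotic transcription) and 55 at stage 5 (the blastoderm, when cells form). Each species and stage held 3 to 7 embryos, and the authors deposited 1 value per gene, species and stage in FPKM, the fragments counted per unit of transcript length and of library size. Species therefore served as the replicates, and 13 species had both stages. D. melanogaster entered at stage 2 only. No treatment was given. Strains are named for D. miranda, with mothers of MSH22 and fathers of SP138, and for D. pseudoobscura, with mothers of Flagstaff 14 and fathers of PP1134. These 2 species were labelled total RNA and taken from earlier work, the others polyA RNA. Their stage 5 embryos are titled latest5 and carry a sex, 3 female and 3 male in each species, and 1 D. pseudoobscura stage 2 embryo was noted as possibly unfertilized. Libraries of 5 species (D. mojavensis, D. persimilis, D. santomea, D. sechellia and D. simulans) held some D. melanogaster material at each stage, those of D. virilis only at stage 2. The series text also names stage 5 samples of D. yakuba and D. virilis among those held in other depositions, so that in these 2 species the stages may come from separate experiments.

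The stage labels were checked with other genes. The 8 zygotic genes, among them ftz, eve and sna, were higher at stage 5 in 103 of 103 species values, and the 5 maternal genes, among them osk and bcd, were higher in 0 of 61. Under the 3 other scalings described below, the markers that could be tested were called in the same directions, with 7 of the 8 zygotic and 3 of the 5 maternal genes testable after quantile normalization. A limma test was run on the difference in log2(FPKM + 1) between stages within each species, over 7225 genes with both stages in at least 10 species and a mean of at least 1 FPKM. A call needed a mean change of 1 or more on the log2 scale with a Benjamini-Hochberg adjusted p below 0.05. The species share ancestry, so their values are not fully independent, and the depth behind an FPKM value is unknown. Of the members, 67 passed this filter, 26 of the small and 41 of the large subunit, and 34 of them had a value in all 13 species.

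Messenger RNAs of the ribosomal proteins were among the most abundant of the embryo at both stages. The median member lay between 853 FPKM in D. miranda and 1401 FPKM in D. virilis at stage 2, and between 2543 FPKM in D. mauritiana and 7082 FPKM in D. ananassae at stage 5. At stage 2 the median member stood between the 99.46 percentile of genes with a value, in D. miranda, and the 99.69 percentile, in D. melanogaster. The RNA came from whole embryos, and FPKM is relative to library size. The values therefore give no amount of RNA per embryo or per nucleus.

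**Figure D1:**
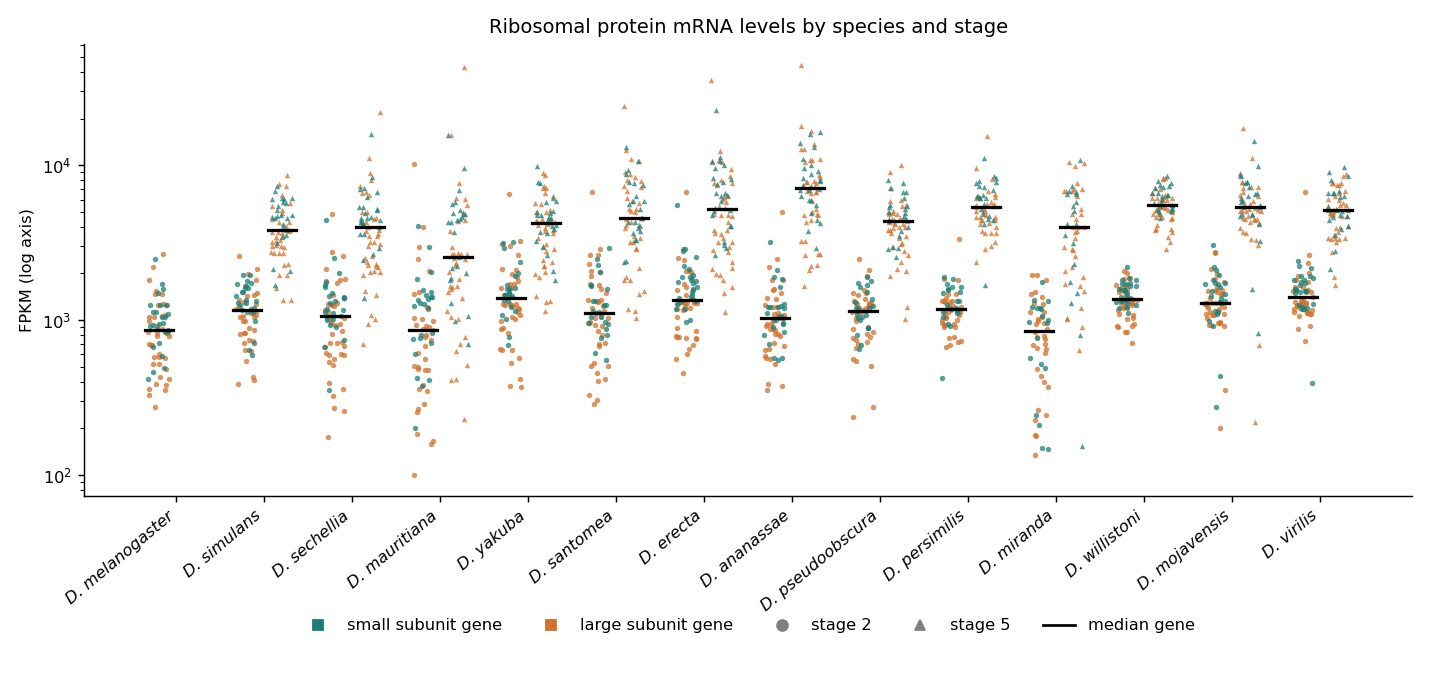
FPKM (log axis) of the 67 tested ribosomal protein genes in each species, circles for stage 2 and triangles for stage 5, coloured by subunit, with a black line at the median gene. The stage 5 median exceeds the stage 2 median in each of the 13 species with both stages, on the scale as deposited, and the genes lie closest together in D. willistoni.

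All 67 tested members rose from stage 2 to stage 5 in FPKM as deposited (limma, adjusted p at most 9.09e-06, for RpL39), against 30.9% of all tested genes called higher and 16.4% called lower. The rise depended on the scale. With each species centred on the median change of all genes, 67 of 67 were called higher, against 1599 of all 7225 tested genes. The columns were also set to equal totals over genes under 100000 FPKM. Then 67 of 67 members still had a mean change above 0 and 65 had an adjusted p under 0.05, but 0 reached a mean change of 1. Of all 7225 tested genes 644 were called higher on that scale and 2994 lower. Quantile normalization was possible for the 34 members with a value in each column. Of these, 17 had a mean change above 0 and 17 below, and 0 were called or had an unadjusted p under 0.05. Of all 3779 genes tested after it 662 were called higher and 821 lower. The summed FPKM of genes below 100000 was itself 2.63 times as large at stage 5 as at stage 2 in the median species. This sum includes the members themselves, which held a mean of 20.4% of it at stage 2 and 32.8% at stage 5. Equal totals therefore take out part of the members' own change.

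The median member changed by 2.02 ± 0.31 on the log2 scale (SD over 13 species), from 1.59 in D. yakuba to 2.79 in D. ananassae. The median of all tested genes changed by 0.37 ± 0.08, from 0.22 to 0.47. With each species centred on the median of all genes the list's value was 1.64. With equal totals it was 0.69, while the median of all genes was then -0.53, and the list exceeded that median in 13 of 13 species. With quantile normalization it was 0.02, and the list exceeded the all-gene median in 5 of 13 species. The scaling also moved the balance over all genes: of the genes called, 65.3% were higher at stage 5 as deposited, 49.3% after median centring, 17.7% with equal totals and 44.6% after quantile normalization.

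Members changed by nearly the same amount. Their mean changes ran from 1.76 for RpS27A to 2.20 for RpL32, with an SD of 0.11 over the 67 members, against an SD of 1.75 over all tested genes. The SD over species of a member had a median of 0.36, against 0.93 for all genes. The members were also far more abundant, with a median stage 2 level of 1206 FPKM against 25.4 FPKM for all tested genes. Genes of matched level were not compared. In 66 of 67 members each measured species was higher at stage 5, which held for 23.3% of all tested genes; RpL39 was the exception. In 36 members, 14 of the small and 22 of the large subunit, the lowest stage 5 value of any species exceeded the highest stage 2 value of any species, which held for 10.3% of all tested genes. In the other 31 members the stages overlapped between species.

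**Figure D2:**
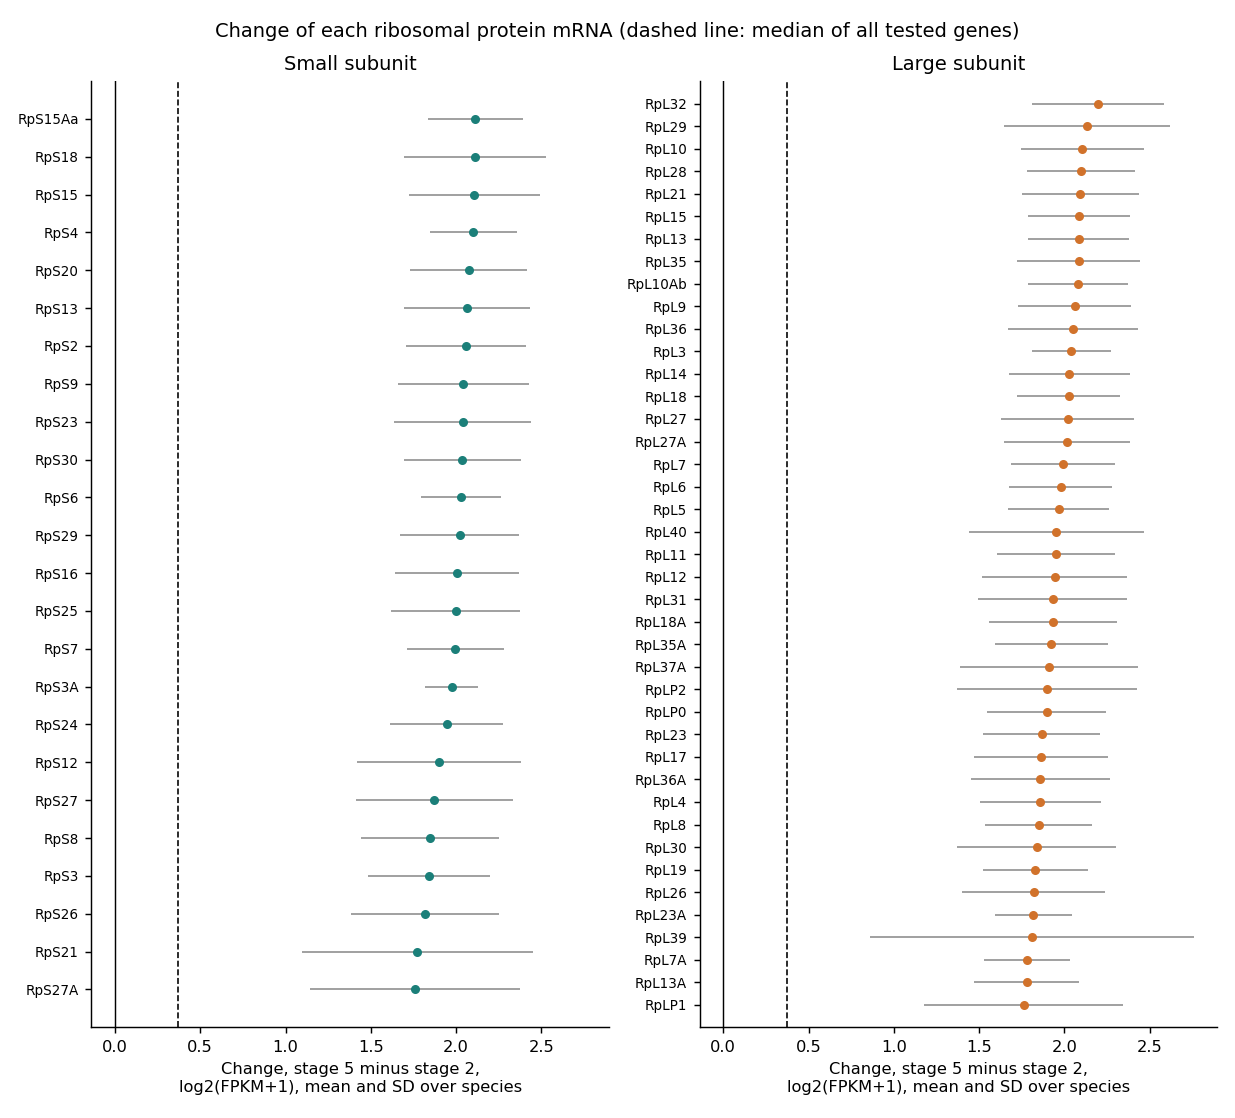
Mean change from stage 2 to stage 5 of tested genes, one per row, in log2(FPKM + 1) as deposited, with bars for the SD over the 10 to 13 species measured. The members lie between 1.76 and 2.20, to the right of the dashed line at 0.37, the median of all tested genes, and none was called with equal column totals or after quantile normalization.

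Within species the members moved as a block. Of the 818 values of a member in a species, 809 were at least 2-fold higher at stage 5 and 2 were not higher. All members with a value passed 2-fold in D. simulans (62 of 62, against 32.7% of all tested genes with a value), D. sechellia (67 of 67, 35.8%), D. mauritiana (63 of 63, 33.6%) and D. santomea (64 of 64, 35.6%). The same held in D. ananassae (66 of 66, 38.4%), D. pseudoobscura (63 of 63, 37.9%), D. persimilis (59 of 59, 37.6%) and D. willistoni (63 of 63, 36.6%). A few members missed it in D. yakuba (62 of 64, 34.5%), D. erecta (65 of 66, 37%) and D. miranda (53 of 54, 39.5%). The remaining species were D. mojavensis (62 of 64, 36.1%) and D. virilis (60 of 63, 36.1%). These counts carry no test, since each species has 1 value per stage.

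The interquartile range of the change over members was 0.08 in D. willistoni and 0.47 in D. erecta, the lowest and highest of 13 species, against 2.05 to 2.42 for all genes. D. ananassae had the largest change of any species in 57 of 67 members, and D. yakuba the smallest in 31. No such count is given for all tested genes. Their median change was 0.417 in D. ananassae and 0.345 in D. yakuba, within the 0.22 to 0.47 of the 13 species.

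Small subunit genes came first in level. The median small subunit gene exceeded the median large subunit gene in 14 of 14 species at stage 2, by 0.27 ± 0.17 on the log2 scale, from 0.05 in D. pseudoobscura to 0.74 in D. mauritiana. At stage 5 it did so in 13 of 13 species, by 0.31 ± 0.24, from 0.06 in D. virilis to 0.91 in D. mauritiana. Both medians are FPKM levels, which are per transcript length.

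The change differed little between the subunits. The small subunit's median change was 2.05 ± 0.32 and the large subunit's 1.99 ± 0.30 (SD, n = 13 species). The difference within a species was 0.05 ± 0.06, above 0 in 11 of 13 species and below it in D. yakuba (-0.03) and D. virilis (-0.05).

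Among small subunit genes the species medians ran from 920 to 2277 FPKM at stage 2 and from 2961 to 9422 FPKM at stage 5. RpS29, a zinc-binding protein of the small subunit, was the highest, with a lowest, median and highest species value of 771, 2277 and 5495 FPKM at stage 2 and of 4157, 9422 and 22589 FPKM at stage 5. The stages overlapped: D. erecta at stage 2 lay above D. miranda, D. pseudoobscura and D. willistoni at stage 5. D. sechellia at stage 2 also lay above D. miranda at stage 5. RpS29 changed by 2.02 ± 0.35 (n = 12).

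RpS3A followed, with 1424, 2244 and 4043 FPKM at stage 2 and 5378, 8581 and 15716 FPKM at stage 5. Its stages did not overlap, and its change was 1.97 ± 0.16 (n = 11). RpS25, which human cells need for initiation at some viral internal ribosome entry sites, had 805, 2066 and 2937 FPKM at stage 2 and 2880, 8478 and 13945 FPKM at stage 5. Only D. pseudoobscura at stage 5 lay within the stage 2 range.

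At the low end RpS12, a protein that Drosophila cells use in the competition between cells of unequal ribosomal protein dose, had 149, 920 and 1441 FPKM at stage 2. At stage 5 it had 800, 3813 and 5955 FPKM, and D. miranda was lowest at both stages. Its change was 1.90 ± 0.48 (n = 12). RpS21 had 374, 1003 and 1809 FPKM at stage 2 and 985, 2961 and 16505 FPKM at stage 5. D. ananassae stood far above the other species at stage 5, and the change of 1.77 ± 0.68 (n = 13) ran from 0.85 in D. yakuba to 3.34 in D. ananassae.

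RpS6, the protein that S6 kinase phosphorylates when TOR is active, had 550, 1035 and 1523 FPKM at stage 2 and 1872, 4688 and 6538 FPKM at stage 5. All stage 5 values lay above all stage 2 values. Its change was 2.03 ± 0.24 (n = 13, adjusted p = 7.31e-11).

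RpS3, a protein of the messenger RNA entry channel with a DNA repair activity in flies, had 566, 1141 and 1694 FPKM at stage 2 and 1806, 4039 and 6176 FPKM at stage 5, without overlap. RpS2, known in Drosophila as string of pearls for its role in egg chambers, had 276, 1011 and 1520 FPKM at stage 2 and 830, 4160 and 6012 FPKM at stage 5. D. mojavensis was lowest at both stages and gave the overlap. RpS2 changed by 2.06 ± 0.35 and RpS3 by 1.84 ± 0.36 (n = 11 each).

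RpS15Aa was among the small subunit genes with the largest changes, 2.11 ± 0.28 (n = 13, adjusted p = 8.22e-11). It had 209, 1204 and 1570 FPKM at stage 2 and 1280, 5068 and 6435 FPKM at stage 5. The stages overlapped through D. miranda alone, which was lowest at both stages. RpS26, which lies at the messenger RNA exit channel, changed by 1.82 ± 0.43 (n = 13), among the 3 smallest of the subunit with RpS21 and RpS27A. Its values were 202, 975 and 1699 FPKM at stage 2 and 701, 3269 and 7820 FPKM at stage 5. D. mauritiana was lowest at both stages.

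In the large subunit the species medians ran from 361 to 2692 FPKM at stage 2 and from 1214 to 10319 FPKM at stage 5. RpL39, a very short protein of the exit tunnel wall, was the highest. Its lowest, median and highest values were 840, 2692 and 10164 FPKM at stage 2 and 3458, 10319 and 42822 FPKM at stage 5. D. willistoni was lowest and D. mauritiana highest at both stages.

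RpL39 was the member whose change varied most, 1.81 ± 0.95 (n = 13). D. virilis went from 6762 to 5415 FPKM and D. yakuba from 6525 to 6304 FPKM, changes of -0.32 and -0.05. In the other 11 species the change was 1.73 or more, with a mean of 2.17 ± 0.37. These 11 were separated after the values were seen. The series text places stage 5 samples of D. yakuba and D. virilis in other depositions, as it does all samples of D. pseudoobscura and D. miranda. In D. pseudoobscura RpL39 went from 1488 to 5087 FPKM and in D. miranda from 1962 to 10319 FPKM. The part of the deposition in these values was not tested.

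RpL10, which joins late in large subunit assembly, and RpL27A came next by level at stage 2. RpL10 had 1830, 2193 and 3963 FPKM at stage 2 and 7576, 9554 and 16731 FPKM at stage 5. RpL27A had 1252, 1878 and 2618 FPKM at stage 2 and 5010, 8084 and 13701 FPKM at stage 5. In both genes the stages did not overlap, and the changes were 2.10 ± 0.36 (n = 11) and 2.01 ± 0.37 (n = 13).

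At the low end RpL4, whose extended loop lines the exit tunnel, had 99.8, 361 and 1179 FPKM at stage 2 and 229, 1214 and 3937 FPKM at stage 5. D. mauritiana was lowest at both stages and D. mojavensis highest. RpL4 was the lowest member at stage 5 in 5 species, D. sechellia, D. mauritiana, D. yakuba, D. erecta and D. ananassae. Its change was 1.86 ± 0.35 (n = 13).

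RpL18, RpL13A and RpL17 were also low, with stage 2 medians of 543, 591 and 661 FPKM and stage 5 medians of 2098, 1907 and 2030 FPKM. At stage 5 their 6, 6 and 5 values from the melanogaster subgroup reached 1964, 1907 and 1624 FPKM, while the 6, 7 and 7 values from the other species began at 2232, 1537 and 1696 FPKM. At stage 5 the subgroup thus lay below the other species in RpL18 and RpL17, and not in RpL13A. At stage 2 each of these genes overlapped. The subgroup then reached 602, 689 and 760 FPKM, and the other species began at 383, 372 and 433 FPKM. This was seen in the values and was not tested, and no share of all tested genes with such a split is given. RpL18, RpL13A and RpL17 changed by 2.02 ± 0.30 (n = 12), 1.78 ± 0.31 (n = 13) and 1.86 ± 0.39 (n = 12). Levels of a gene in different species rest on the gene model of each species, which the sources used here do not give.

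RpL32, a common reference gene in fly expression work, had the largest mean change, 2.20 ± 0.39 (n = 13, adjusted p = 3.19e-10). It had 263, 1201 and 1612 FPKM at stage 2 and 1655, 5187 and 10881 FPKM at stage 5, without overlap. In 12 of 13 species its change exceeded the species' median member. RpL29 followed with 2.13 ± 0.49 (n = 13), from 1.18 in D. yakuba to 3.22 in D. ananassae. It had 177, 1351 and 2288 FPKM at stage 2 and 1194, 5433 and 12800 FPKM at stage 5, and D. miranda was lowest at both stages.

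The smallest changes of the large subunit were those of RpLP1, RpL13A and RpL7A, 1.76 ± 0.58, 1.78 ± 0.31 and 1.78 ± 0.25 (n = 13 each). RpL7A had 637, 1086 and 1753 FPKM at stage 2 and 2380, 3664 and 7503 FPKM at stage 5, without overlap. RpL10Ab, the protein of the mobile L1 stalk beside the exit site of transfer RNA, had 898, 1266 and 1717 FPKM at stage 2 and 3774, 5496 and 7641 FPKM at stage 5. Its stages did not overlap either, and its change was 2.08 ± 0.29 (n = 12).

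The acidic stalk recruits the elongation factors to the ribosome. RpLP0 anchors it, and RpLP1 and RpLP2 bind RpLP0 as dimers. RpLP0 had 352, 638 and 1203 FPKM at stage 2 and 690, 2524 and 5263 FPKM at stage 5. RpLP1 had 201, 650 and 1583 FPKM at stage 2 and 219, 2066 and 6376 FPKM at stage 5. D. mojavensis was lowest and D. willistoni highest in both genes and at both stages.

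RpLP2 differed more between species than any other member. It had 165, 991 and 5003 FPKM at stage 2, a 30.4-fold range, against a median 3.60-fold range over the 67 members and 1.57-fold for RpL30. At stage 5 it had 417, 2762 and 44699 FPKM. D. mauritiana was lowest and D. ananassae highest at both stages. The 7 species of the melanogaster subgroup lay between 165 and 814 FPKM at stage 2 and the other 7 between 1168 and 5003 FPKM. At stage 5 the 6 species of the subgroup lay between 417 and 2695 FPKM and the other 7 between 2762 and 44699 FPKM. This split was seen in the values and was not tested, and no share of all tested genes with such a split is given.

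The ratio of RpLP2 to RpLP0 had a median of 1.27 over 13 species at stage 2, from 0.34 in D. mauritiana to 9.60 in D. ananassae. At stage 5 it had a median of 0.92 over 12 species, from 0.27 to 19.6 in the same 2 species. The ratio of RpLP1 to RpLP0 had a median of 0.84 at stage 2, from 0.28 in D. pseudoobscura to 1.95 in D. yakuba. The 3 stalk genes changed by 1.90 ± 0.35 (RpLP0, n = 12), 1.76 ± 0.58 (RpLP1, n = 13) and 1.90 ± 0.53 (RpLP2, n = 13).

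RpS27A and RpL40 are made as fusions with ubiquitin and so also supply the cell with ubiquitin. RpS27A had 146, 1535 and 1809 FPKM at stage 2 and 154, 6114 and 7595 FPKM at stage 5. D. miranda was far below the other species at both stages. RpS27A changed by 1.76 ± 0.61 (n = 11), and by 1.93 ± 0.27 in the 10 species other than D. miranda. RpL40 had 734, 1320 and 2952 FPKM at stage 2 and 3214, 5149 and 12641 FPKM at stage 5, without overlap, and changed by 1.95 ± 0.51 (n = 13).

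Of the 818 values, 7 departed from the median member of their species by more than 1 on the log2 scale, and all 7 lay below it. They were RpS27A in D. miranda (146 to 154 FPKM), RpLP1 and RpLP0 in D. mojavensis (201 to 219 and 352 to 690 FPKM), and RpL39 in D. yakuba. The other 3 lay in D. virilis, the species mixed with D. melanogaster material at stage 2 only: RpL39, RpL37A (1243 to 1900 FPKM) and RpS26 (1593 to 2800 FPKM). Of the 7, 4 lay in D. yakuba or D. virilis, 3 of them in D. virilis, and these species were pooled after the values were seen. Without D. virilis RpL37A changed by 2.02 ± 0.36 and RpS26 by 1.90 ± 0.32 (n = 12 each). Without D. mojavensis RpLP1 changed by 1.90 ± 0.33 (n = 12) and RpLP0 by 1.98 ± 0.20 (n = 11). The part of mixing in these values was not tested.

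**Figure D3:**
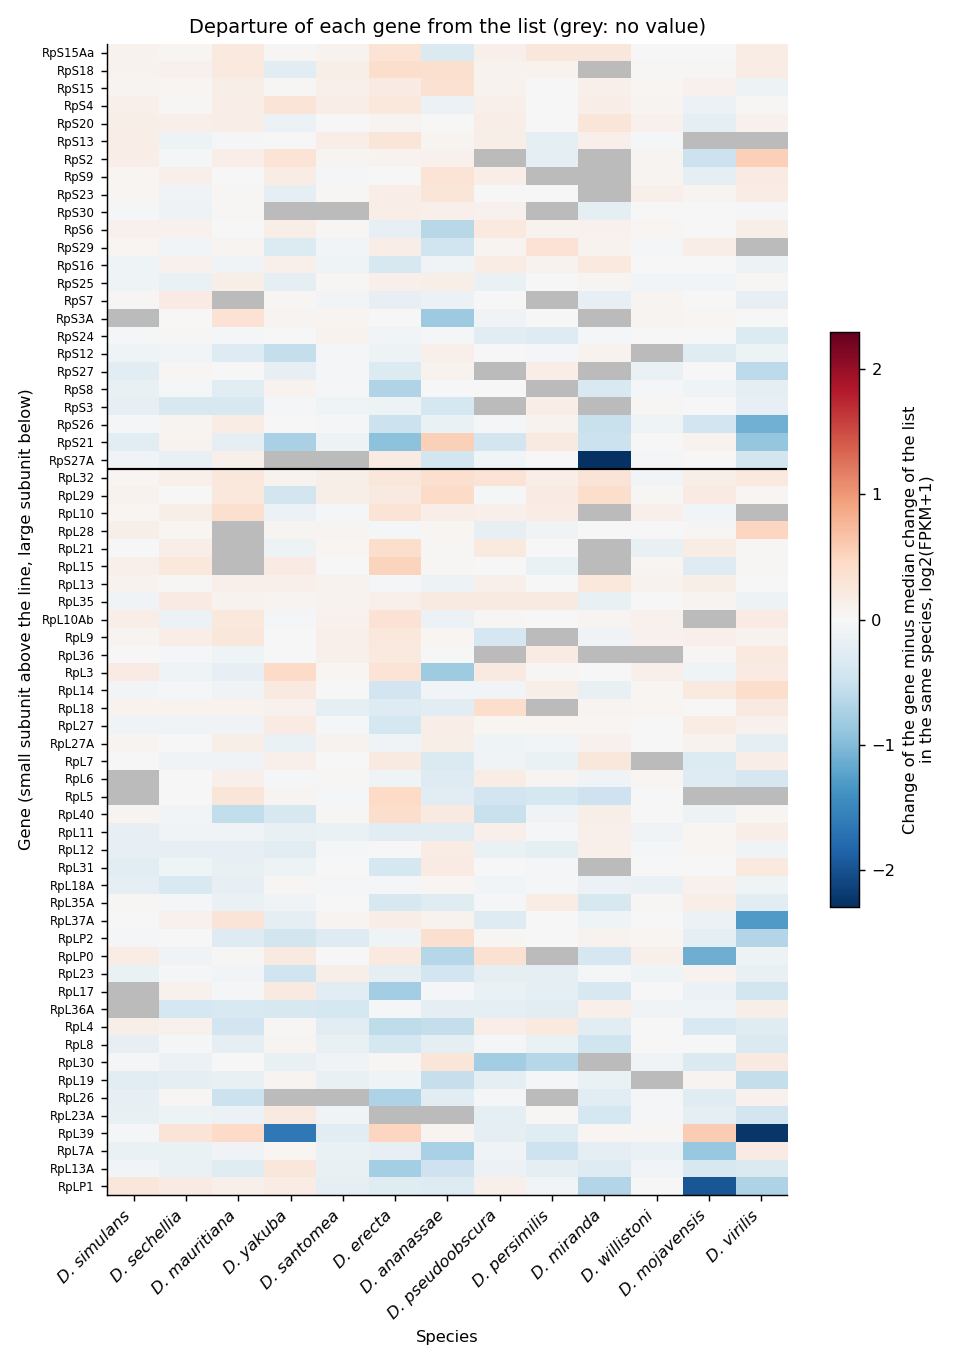
Change from stage 2 to stage 5 of tested genes, one per row, minus the median member of the same species, log2(FPKM + 1), red above and blue below it, with the small subunit above the line and grey for no value. Most cells are pale, and the darkest are RpS27A in D. miranda, RpL39 in D. virilis and D. yakuba, and RpLP1 in D. mojavensis.

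The spread of levels between members differed between species. The SD over members of log2(FPKM + 1) had a mean of 0.73 ± 0.23 over 14 species at stage 2 and of 0.80 ± 0.28 over 13 species at stage 5. It was smallest in D. willistoni, 0.34 at both stages, and largest in D. mauritiana, 1.23 at stage 2 and 1.35 at stage 5. D. miranda followed with 1.06 and 1.21. It was larger at stage 5 in 10 of 13 species. Of the 67 members, 19 had their lowest stage 2 value in D. mauritiana, 15 in D. miranda and 7 in D. melanogaster. No such count is given for all tested genes.

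The order of the members was kept between stages more than between species. Within a species Spearman's rho between stage 2 and stage 5 levels, across members, had a median of 0.945 over 13 species and was lowest in D. virilis, 0.737. Between species at stage 2 it was highest for D. yakuba and D. santomea (0.933). It was low throughout for D. miranda, with a median of 0.215 over the other species. D. willistoni was nearly as low, with a median of 0.262, and D. mojavensis had 0.308. The lowest pair at stage 2 was D. willistoni and D. santomea (0.107). Members are not independent of each other, and these correlations are descriptions.

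**Figure D4:**
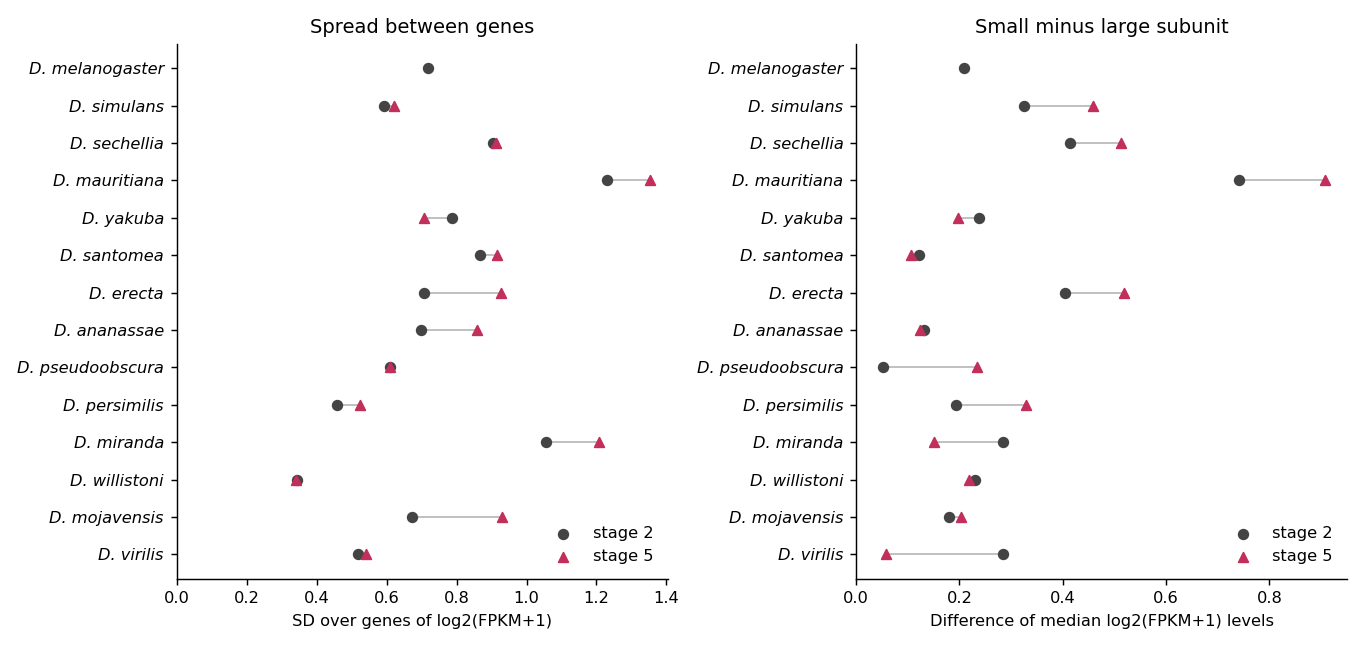
Left, SD over members of log2(FPKM + 1) in each species; right, the median small subunit gene minus the median large subunit gene on the same scale; circles for stage 2 and triangles for stage 5. D. willistoni has the smallest spread and D. mauritiana the largest, and all 27 differences between subunits lie above 0.

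The members held a larger share of the summed FPKM at stage 5. Over genes below 100000 FPKM the 79 members held 20.4 ± 2.6% at stage 2 (n = 14), from 16.5% in D. persimilis to 25.4% in D. erecta. At stage 5 they held 32.8 ± 4.0% (n = 13), from 27.6% in D. mauritiana to 41.9% in D. ananassae. The share was higher at stage 5 in 13 of 13 species, by 1.35 to 1.93 times. Over the total of all genes the median species gave 19.0% at stage 2 and 17.8% at stage 5, and D. miranda, with 11 genes at or above 100000 FPKM at each stage, 0.0479% and 0.0751%.

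**Figure D5:**
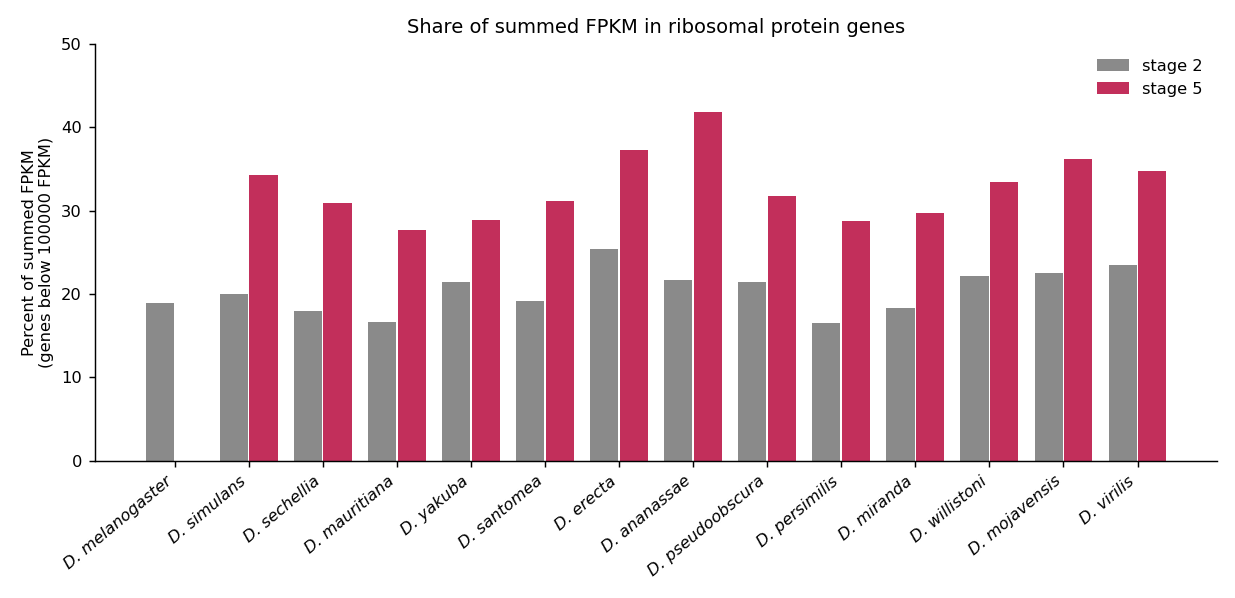
Summed FPKM of the 79 members as percent of the summed FPKM of genes below 100000 FPKM, grey for stage 2 and red for stage 5. The stage 5 bar is the taller in each of the 13 species with both stages, while over the total of all genes the median species has 19.0% at stage 2 and 17.8% at stage 5.

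The rise was compared between lineages. The list's median change was 1.81 ± 0.18 in the 6 species of the melanogaster subgroup and 2.18 ± 0.18 in the 3 of the obscura group. With limma on the change per species, 0 of 62 members differed at an adjusted p under 0.05, against 20.8% of all tested genes. An unadjusted p under 0.05 was found for 10 of 62 members and for 2441 of 6944 genes. The smallest adjusted p was 0.0645, for RpL11, with a difference of -0.60 and an SE of 0.21. The change was smaller in the melanogaster subgroup in 57 of 62 members, with a median difference of -0.34 against -0.16 for all genes. No count of this direction is given for all tested genes, whose median lay on the same side. With a pseudocount of 10, 3 members passed, RpL11, RpL18 and RpS16, against 21.1% of all tested genes. Without a filter on low values 5 passed, those 3 with RpL27 and RpS6, against 14.3% of all tested genes. All 5 changed less in the melanogaster subgroup. Of the 3 obscura group species 2 are those labelled total RNA and taken from earlier work, with stage 5 embryos titled latest5. Lineage therefore cannot be fully told apart from library type, from the experiment or from the sampling of stage 5.

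Mixing with D. melanogaster material was the other split. The list's median change was 2.01 ± 0.17 in the 5 species mixed at both stages and 2.04 ± 0.42 in 7 species counted as not mixed. Of these 7, D. pseudoobscura and D. miranda carry no label on mixing. With limma, 0 of 67 members differed at an adjusted p under 0.05 (0% of all tested genes), and 0 of 67 had an unadjusted p under 0.05, against 134 of 7217 genes. The median difference over members was -0.02, within -0.31 to 0.30 for single members.

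Of the 12 members outside the test, 3 had a value in D. melanogaster alone. RpL41, among the shortest proteins of the ribosome, stood at 7019 FPKM at stage 2, RpS14a at 334 FPKM and RpS15Ab at 35.4 FPKM. The other 9 had both stages in 1 to 9 species. Reads can be split between copies where these are near-identical, and how alike the copies are is not given in the sources used here. The values of RpL34a, RpL34b, RpS14a, RpS14b, RpS15Ab, RpS28a, RpS28b, RpL10Aa, RpL37a and RpL37b are therefore uncertain.

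RpS28b, a protein near the messenger RNA exit, had values in 7 species with both stages and changed by 2.13 ± 0.38. Its stage 2 values ran from 708 to 1731 FPKM and its stage 5 values from 3030 to 8881 FPKM, without overlap. RpL37a, in 9 such species, changed by 2.06 ± 0.37, from 494 to 1431 FPKM at stage 2 to 1858 to 7187 FPKM at stage 5, also without overlap.

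RpL38, which mice need for the translation of some Hox messenger RNAs, went from 322 to 2501 FPKM in D. persimilis, from 1443 to 5471 in D. willistoni, from 1791 to 9577 in D. mojavensis and from 2624 to 5784 in D. virilis. RpL34b went from 130 to 405 FPKM in D. mauritiana, from 1007 to 4641 in D. mojavensis and from 1118 to 4098 in D. virilis. RpL34a went from 285 to 825 FPKM in D. mauritiana. Each of these values was higher at stage 5.

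Several copies were listed at 0. RpL10Aa, the second copy beside RpL10Ab, was listed at 0 in all 11 of its values. RpL37b did not exceed 0.33 FPKM at stage 2 or 1.69 FPKM at stage 5. RpS28a was listed at 0 in D. melanogaster and D. mauritiana at stage 2 and at 2.28 FPKM in D. mauritiana at stage 5, but went from 897 to 5160 FPKM in D. miranda. RpS14b was listed at 0 at both stages in D. mojavensis and went from 513 to 1750 FPKM in D. simulans, from 455 to 1928 in D. sechellia and from 436 to 1257 in D. virilis. A value of 0 can be a failed estimate.

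Other genes of translation were read beside the ribosome, from lists chosen with the members. All 7 elongation factor genes rose, with a median change of 1.92, among them EF2, the translocase, by 2.15 ± 0.21 (n = 12). Ef1alpha48D, which delivers transfer RNA, rose by 1.64 ± 0.26 (n = 10). As deposited, 30.9% of all tested genes were called higher. With equal column totals 0 of 7 elongation factor genes were called, against 644 of all 7225 tested genes called higher and 2994 lower.

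Of the 41 tested genes of ribosome biogenesis 25 rose, 1 fell and 15 were not called, with a median of 1.39. Over all tested genes 30.9% were called higher and 16.4% lower. Non1, a GTPase of large subunit assembly, rose by 2.39 ± 0.18 (n = 12), and Fib, the nucleolar methyltransferase fibrillarin, by 1.90 ± 0.44 (n = 12). The gene that fell was hoip, which encodes a protein of the box C/D and spliceosomal particles, by 1.73 ± 0.78 (n = 13). Nop60B, the pseudouridine synthase, stood at 388 and 488 FPKM with a mean change of 0.19 ± 0.46 (n = 12, adjusted p = 0.338). With equal column totals 2 of the 41 were higher and 8 lower, against 644 and 2994 of all 7225 tested genes. After median centring 21 were higher and 3 lower, against 1599 and 1646 of all tested genes. Quantile normalization left 21 to test, with 3 higher, 1 lower and a median of 0.64, against 662 higher and 821 lower of 3779 genes.

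Of the 70 tested genes of the mitochondrial ribosome 10 rose and 0 fell, with a median of 0.48. Over all tested genes 30.9% were called higher and 16.4% lower. With equal column totals 0 of the 70 were higher and 21 lower, against 644 and 2994 of all 7225 tested genes. Of the 13 cytoplasmic genes left out by the rule all 10 tested rose, by 1.15 to 2.17, and 0 were called with equal totals.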

How the data were processed

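Per the submitters' processing notes, the tools used were cutadapt, TopHat2, Cufflinks, Cuffnorm and Cuffdiff; their versions and the builds were not given in the sources used here. The authors deposited FPKM values, 1 per gene, species and stage with the embryos of a group combined; the unit was inferred from those tools and from the values. In the wider table the header stands 1 column off its values, which was settled by comparison with the table of genes found in all 14 species, where 0 values differed (tolerance 1e-09). Each table holds 1 column for D. melanogaster at stage 5, which matches no sample, so 2 columns were not used. Per the labels' protocols, flies were kept on molasses food, embryos were staged by imaging, RNA was extracted with TRIzol and libraries were made with Tru-Seq reagents.

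Values were taken as log2(FPKM + 1). Genes needed both stages in 10 species and a mean of 1 FPKM. The stage 5 minus stage 2 difference of each species was tested with limma 3.58.1 in R 4.3.3 (moderated with a mean trend, Benjamini-Hochberg adjustment over all genes tested), and the code was tested on simulated data. The melanogaster subgroup and obscura group, and species mixed and not mixed, were compared in the same way. Tables and plots used Python 3.11.15, pandas 2.3.3 and matplotlib 3.10.9. Of the 79 symbols 77 are current.

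Genes named with full values are the 3 highest and 3 lowest of each subunit by stage 2 level, stage 5 level and mean change, the stalk genes, the ubiquitin fusions, RpL32, RpS6, RpS3, RpL41, RpL10Ab, RpS2, duplicated members and those with few species; RpL30, RpL37A, RpL11, RpL27 and RpS16 were named after their values were seen. The members and lists were chosen with earlier results of these data known. Alternatives covered the pseudocount, the filter, the scaling, the table, each species left out and groups of species. Some members that this rule names are not reported here by name and are left out of the plots by gene, but remain in all counts and list values.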

Additional observations from a re-analysis of the deposited data

Results flagged for a closer look

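Within each group of related species with 4 to 10 values, the change of each named member was searched for a single species far from the others by Dixon's test. Only the melanogaster subgroup had at least 4 species with both stages, so the change of a species outside it could not be flagged. The departures in D. miranda, D. virilis and D. mojavensis described above lay outside this search. Of 36 groups of values 3 held such a species, and chance gives about 1 in 20. RpL39 changed by -0.050 in D. yakuba, while the other species of the melanogaster subgroup lay between 1.73 and 2.39. RpL29 changed by 1.18 in D. yakuba, while the others lay between 1.85 and 2.21. The stage 5 samples of D. yakuba are named in the series text as part of another deposition, and its list median of 1.59 was the lowest of the 13 species; the part of this in both values was not tested. RpS27A changed by 2.09 in D. erecta, while the other 3 species with a value lay between 1.69 and 1.73.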

How the results depend on the processing

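The 67 calls and the direction of the 28 members with full values held with each species left out, with pseudocounts of 0.1 and 10, with 1 mean per clade, within mixed and within not mixed species, and without D. pseudoobscura and D. miranda. With each species left out in turn the count stayed between 67 and 67 and the list's median change between 1.95 and 2.05, the difference in change between the subunits between 0.046 and 0.063, and the counts of members differing by lineage and by mixing between 0 and 0. Without D. mauritiana, D. miranda and D. virilis, chosen after the data were seen for their wide spread or mixing at 1 stage, 67 were called with a median of 2.03, and without D. yakuba and D. virilis 67 with a median of 2.06. Requiring values in all 13 species, or using the table of all 14 species, left 34 members to test and 34 called. Scaling decided more. Centring each species on the median of all genes gave a list median of 1.64 with 67 called. Equal totals gave 0.69 with 0 called, and quantile normalization 0.023 with 0 called. The mean change was then below 0 in 10 of the 17 named members it could be computed for, among them -0.016 for RpLP1, -0.21 for RpLP2, -0.068 for RpL7A, -0.0020 for RpL13A, -0.020 for RpL29, -1.02 for RpL39, -0.32 for RpL40, -0.13 for RpS21 and -0.064 for RpS26. Quantile normalization fixes the level at a given rank. Over all genes with a value, the median member stood between percentiles 99.46 and 99.69 at stage 2. Its rank among the 3779 genes used for quantile normalization is not given, and the part of rank in these values was not tested. The count of members differing between lineages was 3 with a pseudocount of 10 and 5 without a filter; the cause was not tested. The test paired the stages by species. For the embryo replicate numbers in the labels, no paired analysis was possible because the deposited columns carry no embryo number. The depth behind a value is unknown, so no limit was set for values of 0.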
